A study of Mus musculus with 8 samples.

Results

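The peroxisome proliferator-activated receptors, their retinoid X receptor partners and the PGC-1 coactivators were examined in mouse intestinal crypt organoids with and without overexpression of MG53. The set held 7 genes, the receptors Ppara, Ppard and Pparg, the partners Rxra and Rxrb, and the coactivators Ppargc1a and Ppargc1b, of 13706 genes with a value in these files. Genes were found by their Ensembl identifiers, and of their 212 start and end entries 185 lay on an annotated exon boundary of the gene and 0 on that of another gene. All 7 passed the filter on low values, an average over the 8 samples of 0.5 FPKM or more, which left 10793 genes for testing. FPKM scales fragments by transcript length and by the mapped fragments of the library, so levels of different genes can be set side by side.

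Small intestinal crypts were grown in Matrigel, and 4 WT samples and 4 MG53-TG samples were sequenced. MG53-TG mice carry a transgene that overexpresses, throughout the body, MG53, the muscle-enriched membrane repair protein encoded by Trim72. The labels name the groups only as wt and mg53-tg and the study speaks of WT littermates for its MG53-TG mice, but its text takes its organoid transcriptome from MG53-TG mice crossed to an Lgr5-EGFP-IRES-CreERT2 knock-in and from Lgr5 controls, while a figure legend of the same study names bulk RNA-seq of organoids from MG53-TG and WT mice, as the labels do. Whether the samples carry that knock-in was not settled here. The promoter of the transgene and the age of the mice are not given in the sources used here, and neither the labels nor the methods state that each sample was a separate animal, so p-values measure only the spread between these samples, which may be technical. Trim72 (chr7:128003949-128011033) was listed in none of the 4 WT samples and had an end event in all 4 MG53-TG samples, at 16.4, 27.4, 31.9 and 36.5 FPKM in replicates 1 to 4. Its start event was listed in 3 MG53-TG samples, with no entry in MG53-TG replicate 2.

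PPAR receptors are nuclear receptors that bind fatty acids and their derivatives, pair with an RXR and act on genes that carry direct repeats of a hexamer. PPARα is best known for switching on fatty acid oxidation and ketone body synthesis, PPARδ is broadly expressed and has been linked to intestinal stem cells, and PPARγ is known for fat cell formation and is also present in the intestinal epithelium. PGC-1 proteins do not bind DNA themselves but are brought to these receptors, to oestrogen-related receptors and to nuclear respiratory factors, where they raise transcription of genes for mitochondria and lipid oxidation.

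The start regions of the genes whose levels differed most are shown first, since several carry more than 1 transcript start. RefSeq promoter entries (GRCm38.p6, 250 bases before to 50 after a start) existed for 6 of the 7 genes, Ppargc1b being the one with none, and comprised 10 windows. Short words were searched on both strands: the nuclear receptor half-site AGGTCA, the GC box GGGCGG, the E-box CACGTG and the TATA box TATAAA. The direct repeat of the half-site with 1 base between, named DR1, was searched as AGGTCANAGGTCA and by construction overlaps its half-sites. Capitals mark the words found, all of them GC boxes, half-sites or a TATA box, and the sequences read 5′ to 3′ on the plus strand.
Ppara, chr15:85735526-85735825: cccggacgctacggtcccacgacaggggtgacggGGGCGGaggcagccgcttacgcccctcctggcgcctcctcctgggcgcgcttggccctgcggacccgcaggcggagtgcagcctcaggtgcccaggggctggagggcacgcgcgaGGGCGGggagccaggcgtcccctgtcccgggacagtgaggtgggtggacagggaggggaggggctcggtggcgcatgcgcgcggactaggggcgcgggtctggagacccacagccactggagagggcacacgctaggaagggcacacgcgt
Rxra, chr2:27676951-27677250: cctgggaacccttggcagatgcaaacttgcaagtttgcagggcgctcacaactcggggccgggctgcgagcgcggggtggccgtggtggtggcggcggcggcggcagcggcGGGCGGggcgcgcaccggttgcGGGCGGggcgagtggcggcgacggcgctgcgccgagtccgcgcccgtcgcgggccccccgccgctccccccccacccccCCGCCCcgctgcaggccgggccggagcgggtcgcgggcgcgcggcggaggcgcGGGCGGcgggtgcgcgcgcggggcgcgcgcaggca
Rxra second start, chr2:27709042-27709341: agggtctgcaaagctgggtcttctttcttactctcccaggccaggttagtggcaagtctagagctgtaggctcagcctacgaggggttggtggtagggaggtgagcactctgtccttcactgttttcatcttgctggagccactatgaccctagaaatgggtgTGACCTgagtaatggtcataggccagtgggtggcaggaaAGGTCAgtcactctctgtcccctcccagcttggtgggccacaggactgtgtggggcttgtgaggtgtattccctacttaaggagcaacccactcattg
Pparg, chr6:115360894-115361193: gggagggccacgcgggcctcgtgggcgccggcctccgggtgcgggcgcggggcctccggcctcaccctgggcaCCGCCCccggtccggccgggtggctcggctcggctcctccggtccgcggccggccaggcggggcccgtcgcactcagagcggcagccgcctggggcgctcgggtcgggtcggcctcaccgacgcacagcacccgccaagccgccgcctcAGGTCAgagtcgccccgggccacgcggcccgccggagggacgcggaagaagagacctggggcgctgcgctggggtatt
Pparg second start, chr6:115362099-115362398: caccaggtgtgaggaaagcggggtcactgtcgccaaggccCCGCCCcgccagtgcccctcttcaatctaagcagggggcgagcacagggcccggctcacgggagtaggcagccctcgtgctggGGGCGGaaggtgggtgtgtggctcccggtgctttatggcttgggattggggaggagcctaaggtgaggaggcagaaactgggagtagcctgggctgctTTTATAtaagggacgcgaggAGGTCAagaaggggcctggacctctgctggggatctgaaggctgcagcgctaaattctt
Pparg PPARγ2 start, chr6:115421816-115422115: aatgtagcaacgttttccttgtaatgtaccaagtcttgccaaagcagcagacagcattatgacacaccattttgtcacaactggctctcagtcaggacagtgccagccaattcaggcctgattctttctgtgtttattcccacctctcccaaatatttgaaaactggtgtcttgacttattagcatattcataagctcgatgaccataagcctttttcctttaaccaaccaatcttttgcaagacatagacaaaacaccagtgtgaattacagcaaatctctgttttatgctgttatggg

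The Ppara window was 74.7% G or C and held 2 GC boxes, and the first Rxra window was 83.0% G or C and held 4. The first Pparg window (80.3% G or C) held 1 half-site and 1 GC box, and the second (62.7%) held 1 half-site, 2 GC boxes and 1 TATA box. The last, in front of the exon that starts the PPARγ2 form known from fat cells, was 40.3% G or C and held none of these words. The second Rxra window held 2 half-sites. Over 32851 promoters of the same length, the median was 52.7% G or C, 35.7% held a GC box, 16.3% a half-site, 13.6% a TATA box, 7.15% an E-box and 0.0396% a DR1. No member window held a DR1 or an E-box, which says only that these letters are not in these windows.

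In WT crypt organoids, RXR genes stood highest and PGC-1 genes lowest. Rxrb had 12.6 ± 0.554 FPKM (mean ± SD, n = 4 here and below except where a sample is said to have no entry), Rxra 11.4 ± 0.791, Pparg 9.63 ± 0.896, Ppara 5.29 ± 1.26, Ppard 4.56 ± 1.82, Ppargc1b 2.87 ± 0.408 and Ppargc1a 2.10 ± 0.277. Among neighbours in this order the ranges of Pparg and Ppara, and of Ppargc1b and Ppargc1a, did not overlap, while all other neighbours overlapped. In MG53-TG organoids the order was Rxra, Ppara, Rxrb, Pparg, Ppard, Ppargc1b and Ppargc1a, and only Pparg and Ppard were separated by a gap between their ranges. Ppara thus stood above Rxrb and Pparg in the MG53-TG order and below both in the WT order.

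**Figure D1:**
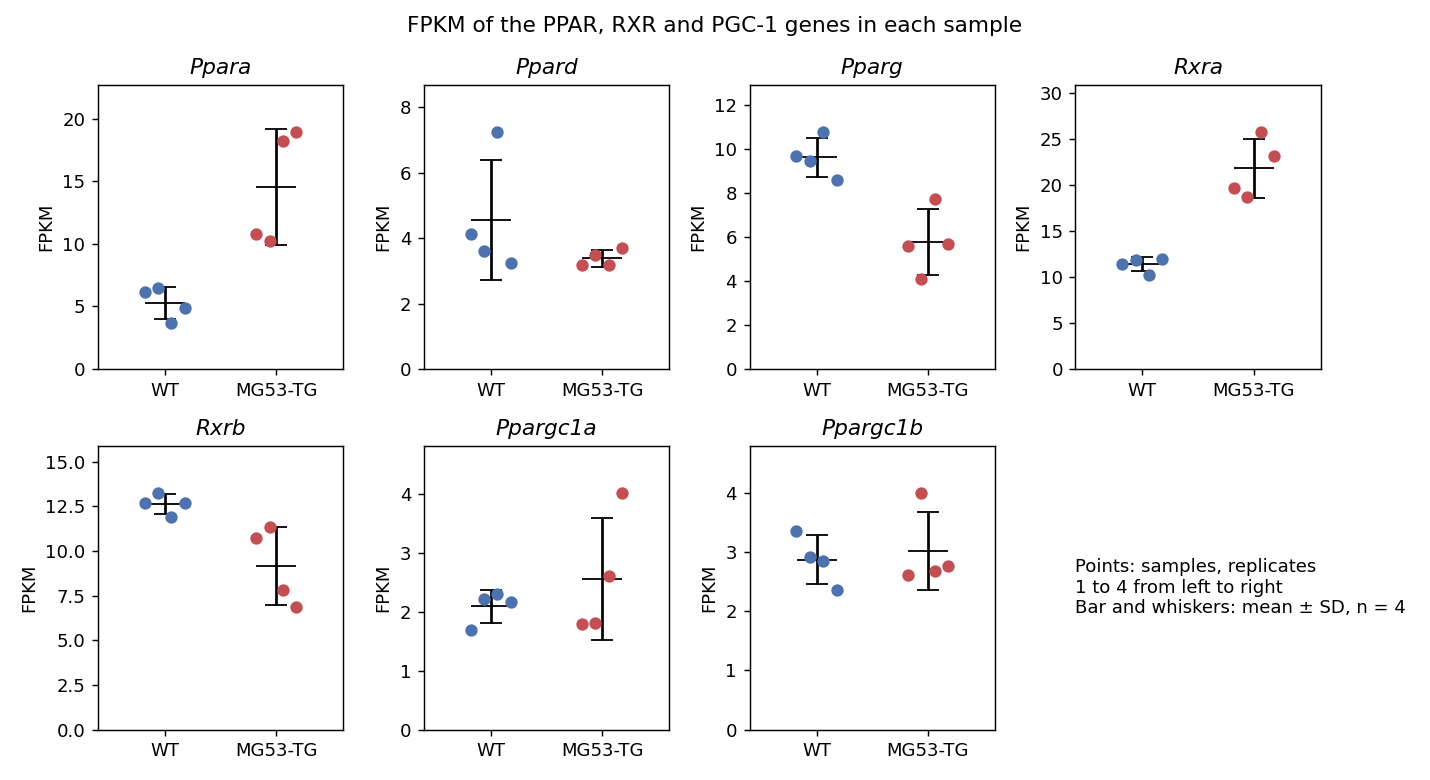
FPKM of each gene in the 4 WT and 4 MG53-TG samples (points, replicates 1 to 4 from left to right), with the mean and SD of each group; each panel has its own axis from 0. The groups are separate for Ppara and Rxra, higher in MG53-TG, and for Pparg and Rxrb, lower in MG53-TG, and overlap for Ppard, Ppargc1a and Ppargc1b.

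The comparison of MG53-TG with WT asked whether overexpression of MG53 went with other levels of these genes. With limma on log2(FPKM + 1) and Benjamini-Hochberg adjustment over all genes tested, at an adjusted p of at most 0.05, 2 of 7 members were higher in MG53-TG (28.6%), beside 15.8% of all genes tested, and 2 were lower (28.6%), beside 29.0% of all genes. The count of lower members was thus at the share of all genes. With median-of-ratios scaling, the samples being divided by the median of their gene ratios, Pparg and Rxrb lost their calls (limma adjusted p = 0.0693 and 0.0947), which left 0 of 7 lower beside 20.6% of all genes. Ppara and Rxra stayed called higher (limma adjusted p = 0.00429 and 0.00113), beside 20.6% of all genes higher with that scaling. The 4 members called without that scaling had groups that did not overlap, 2 of them higher, beside 15.7% of genes with all 8 values, and 2 lower, beside 29.2%. Over all genes tested the log2 fold change had a median of -0.16, and scaling the samples by the median of their ratios moved it to -0.01. With that scaling 50% of the genes called were higher, against 35.2% without it. A change of a single gene is therefore best read against that median.

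Among the receptors, Ppara (chr15:85734983-85802819) rose and Pparg fell, and Ppard passed no test. Ppara had 6.15, 6.45, 3.70 and 4.87 FPKM in WT replicates 1 to 4 and 10.8, 10.2, 18.2 and 18.9 FPKM in MG53-TG replicates 1 to 4. The lowest MG53-TG value exceeded the highest WT value, and MG53-TG replicates 3 and 4 were the highest. These sums of starts include Ppara-206, a form with no annotated coding sequence that is described below. With it left out the groups overlapped. The MG53-TG mean of 14.5 ± 4.66 was 2.75 times the WT mean, a log2 fold change of 1.28 (SE 0.24, 95% interval 0.72 to 1.83, limma adjusted p = 0.00378; two-sided exact permutation p = 0.0286, the smallest that 4 against 4 samples can give). Counted from its end event instead of its starts, Ppara had 5.92, 6.28, 3.34 and 4.68 FPKM in WT and 10.2, 9.86, 13.7 and 6.92 FPKM in MG53-TG. These groups also stood apart (log2 fold change 0.88, limma adjusted p = 0.018), and MG53-TG replicate 4 was then the lowest of its group.

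Pparg (chr6:115360951-115490399) was at 9.71, 9.47, 10.8 and 8.59 FPKM in WT and at 5.59, 4.10, 7.74 and 5.67 FPKM in MG53-TG. Each MG53-TG sample was below each WT sample. The MG53-TG mean of 5.77 ± 1.498 was 0.599 of the WT mean, a log2 fold change of -0.67 (SE 0.16, 95% interval -1.05 to -0.30, limma adjusted p = 0.0118). Under median-of-ratios scaling it came to -0.50 (adjusted p = 0.0693, limma) and under quantile normalization to -0.52 (adjusted p = 0.0671, limma), so the call was lost under both scalings while the direction held.

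Ppard (chr17:28232700-28301474) had 4.13, 3.62, 7.24 and 3.24 FPKM in WT and 3.18, 3.49, 3.16 and 3.69 FPKM in MG53-TG. The groups overlapped, and WT replicate 3 was well above the other samples. Its difference was -0.29 on the log2 scale (95% interval -0.76 to 0.17, limma adjusted p = 0.27), and without WT replicate 3 it was -0.09. This interval leaves room for a lower or a slightly higher level, so Ppard cannot be said to be alike in the groups.

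The RXR partners moved in opposite directions. Rxra (chr2:27676440-27762957), the RXR that is most abundant in liver and epithelia, was at 11.4, 11.9, 10.3 and 12.0 FPKM in WT and at 19.6, 18.7, 25.7 and 23.1 FPKM in MG53-TG. All MG53-TG samples lay above all WT samples. The MG53-TG mean of 21.8 ± 3.25 was 1.91 times the WT mean, a log2 fold change of 0.87 (SE 0.12, 95% interval 0.60 to 1.14, limma adjusted p = 0.000728), and it was also called in each of 11 other settings and 8 fits without 1 sample. Rxrb (chr17:34031812-34038399), the broadly expressed RXR, was at 12.7, 13.3, 11.9 and 12.7 FPKM in WT and at 10.7, 11.4, 7.83 and 6.85 FPKM in MG53-TG. Its groups were separate, with MG53-TG replicates 3 and 4 the lowest.

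The Rxrb mean in MG53-TG, 9.19 ± 2.19, was 0.727 of the WT mean, a log2 fold change of -0.45 (95% interval -0.80 to -0.09, limma adjusted p = 0.0461). This call stood close to the threshold and held in 5 of 11 other settings and in 2 of 8 fits without 1 sample, with log2 fold changes from -0.55 to -0.27 throughout. It was lost without MG53-TG replicate 4 (-0.33, limma adjusted p = 0.0906), without MG53-TG replicate 3 (-0.39, limma adjusted p = 0.112) and without any 1 of the 4 WT samples. The values after rescaling were -0.27 by median of ratios (limma adjusted p = 0.0947) and -0.28 by quantiles (limma adjusted p = 0.0843).

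Neither PGC-1 coactivator passed the test. Ppargc1a, the coactivator of mitochondrial biogenesis (chr5:51454250-51567726), had 1.69, 2.22, 2.31 and 2.17 FPKM in WT and 1.80, 1.82, 2.61 and 4.02 FPKM in MG53-TG. The groups overlapped, and MG53-TG replicate 4 was the highest. It differed by 0.16 on the log2 scale (95% interval -0.28 to 0.61, limma adjusted p = 0.521), which turned to -0.02 without MG53-TG replicate 4. Ppargc1b, its close relative on chromosome 18, had 3.36, 2.92, 2.85 and 2.36 FPKM in WT and 2.62, 4.00, 2.68 and 2.77 FPKM in MG53-TG. Its groups overlapped as well, with a log2 fold change of 0.04 (95% interval -0.28 to 0.37, limma adjusted p = 0.815) that turned to -0.06 without MG53-TG replicate 2.

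**Figure D2:**
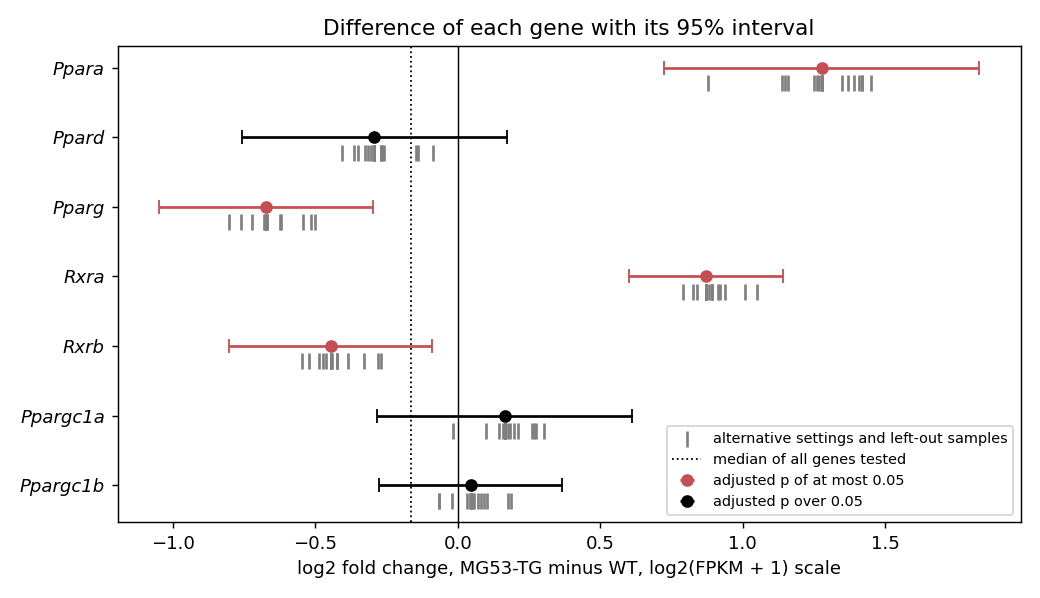
Log2 fold change of each gene, MG53-TG minus WT, on the log2(FPKM + 1) scale (points), with its 95% interval and, below, the values under other settings and without single samples (ticks). Ppara at 1.28 and Rxra at 0.87 lie right of 0 in all of them, Pparg at -0.67 and Rxrb at -0.45 lie left, and the dotted line marks the median of all genes tested, -0.16.

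The shares of Ppara and Pparg within the PPAR sum and of Rxra within the RXR sum did not overlap between the groups, while those of Ppard and Ppargc1a did. Ppara made up 30.8%, 33%, 17% and 29.1% of the summed FPKM of the 3 PPAR genes in WT and 55.2%, 57.4%, 62.6% and 66.9% in MG53-TG. These shares take Ppara and Ppard from starts and Pparg from its end event. In MG53-TG replicate 4 the Ppara end event was at 6.92 FPKM, against 18.9 FPKM from starts, which would give a lower Ppara share there. Pparg made up 49.5 ± 1.38% in WT and 24.5 ± 3.77% in MG53-TG, and Ppard 23.0 ± 6.96% and 14.9 ± 3.82%. Pparg was thus the leading PPAR transcript in every WT sample and Ppara in every MG53-TG sample. The share of Ppard overlapped between the groups.

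The sum of the 3 PPAR genes, 19.5 ± 2.08 FPKM in WT and 23.7 ± 5.83 FPKM in MG53-TG, overlapped between the groups. Rxra made up 47.4 ± 0.907% of the sum of Rxra and Rxrb in WT and 70.2 ± 7.85% in MG53-TG, and that sum ranged from 22.2 to 25.1 FPKM in WT and from 30.0 to 33.6 FPKM in MG53-TG. Ppargc1a made up 42.3 ± 6.22% of both PGC-1 genes in WT and 45.2 ± 11.9% in MG53-TG, with overlap. These shares are combinations of the values above and are given without a test.

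**Figure D3:**
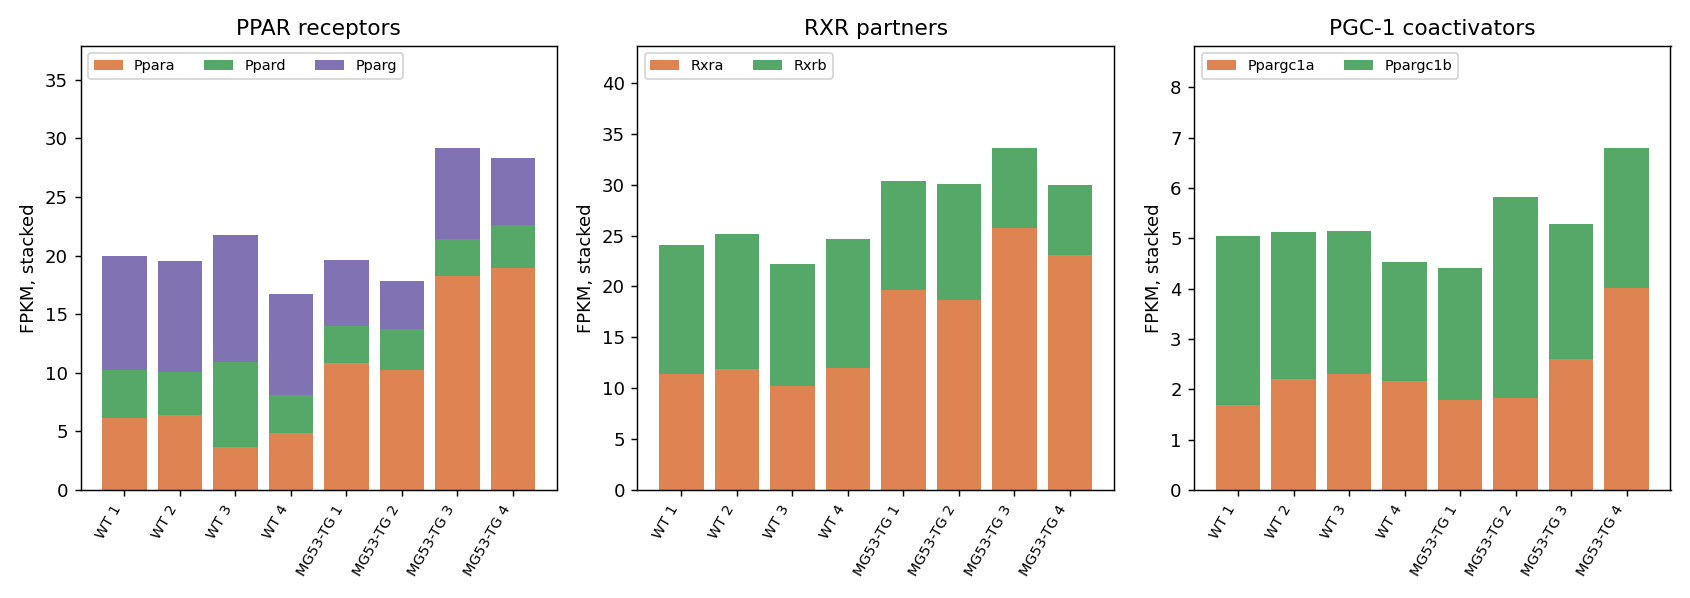
FPKM of the PPAR receptors, the RXR partners and the PGC-1 coactivators stacked by gene in each of the 8 samples; each panel has its own axis from 0. Ppara takes the largest part of the PPAR bars in MG53-TG and Pparg in WT, and Rxra outweighs Rxrb in MG53-TG.

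Start events show which first exons the transcripts of each gene carry. The 7 genes had 33 start events, of which 15 held a mean share of at least 5% of their gene and 13 could be tested. None of the 13 differed between the groups in limma on the arcsine scale with adjustment over 7348 start events of all genes, of which 87 (1.18%) were called. At an unadjusted p under 0.05 there were 3 of 13 member starts and 864 of 7348 in all. The member starts were Ppara-201, listed in no WT sample, and both tested Ppard starts. The shares of the Ppard starts mirror each other, so the member count is not read as a result. No gene of the set had more than 1 end event, so end shares were not compared for it; in other genes 3 of 1545 end events (0.194%) were called.

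Ppara transcripts began at several places within a stretch of chromosome 15, and which of them carried the FPKM varied from sample to sample. The protein-coding form Ppara-203, starting at 85735564, had 3.21, 6.28, 0.185 and 2.19 FPKM in WT and 0.438, 4.88, 8.30 and 0.966 FPKM in MG53-TG. Ppara-206, which shares that start but has a longer first exon and no annotated coding sequence, had 0.127, 0.0366, 3.51 and 0.0860 FPKM in WT and 5.68, 4.96, 1.23 and 7.27 FPKM in MG53-TG. Where one of these was high the other was mostly low, and neither share separated the groups (limma adjusted p = 0.688 and 0.807).

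Ppara-201, starting at 85736131, was listed in no WT sample and had 4.05, 6.46 and 6.92 FPKM in MG53-TG replicates 1, 3 and 4, with no entry in MG53-TG replicate 2. It held 37.4%, 35.5% and 36.6% of the start events of those 3 samples. The share passed no threshold over all samples (limma adjusted p = 0.23). Ppara-201 entered this test through MG53-TG alone, so no direction is read from it. Without MG53-TG replicate 2 the share passed (limma adjusted p = 0.00628). That fit leaves out the only MG53-TG sample without an entry, so it is no support for a difference. Ppara-202, starting at 85735776 where the printed window has its start site, was at 2.71, 0, 0 and 2.48 FPKM in WT and at 0.201, 0.238, 0.286 and 3.58 FPKM in MG53-TG.

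Pparg had 4 first exons of at least 5% of its start events, and 2 of them were listed in all samples. Pparg-202, starting at 115360951, had 4.02, 3.86, 3.55 and 3.72 FPKM in WT and 2.62, 2.80, 3.53 and 2.05 FPKM in MG53-TG. The start at 115362292, shared by Pparg-204, Pparg-206 and Pparg-203, had 3.63, 3.46, 4.35 and 3.28 FPKM in WT and 1.42, 1.32, 2.30 and 1.54 FPKM in MG53-TG. Both of these exons had groups that did not overlap, narrowly so for Pparg-202, whose lowest WT value was 3.55 and highest MG53-TG value 3.53 FPKM. The share of the second was 38.4 ± 1.67% in WT and 29.0 ± 3.35% in MG53-TG (limma adjusted p = 0.54). A pair of shorter first exons at 115360951 matched no annotated transcript and ranged from 0 to 2.23 FPKM, and with them added to Pparg-202 the groups overlapped at that position. The start of the PPARγ2 form, Pparg-201 at 115422066, stayed at or below 0.550 FPKM in all 8 samples.

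Rxra was carried mainly by Rxra-201, starting at 27677201, with 11.2, 11.5, 9.61 and 12.0 FPKM in WT and 16.3, 18.4, 18.6 and 22.8 FPKM in MG53-TG. This start alone separated the groups. Rxra-202, starting at 27709292, was at 6.95 FPKM in MG53-TG replicate 3 and at or below 0.130 FPKM in the other 7 samples. An unannotated start at 27675972 had 3.19 FPKM in MG53-TG replicate 1 and was listed in no other sample.

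Ppard transcripts came from a main start at 28232700, with 2.36, 2.57, 6.71 and 2.55 FPKM in WT and 3.18, 3.29, 2.95 and 3.69 FPKM in MG53-TG. Its second start, that of Ppard-206 at 28272119, had 1.41, 1.05, 0.528 and 0.695 FPKM in WT and 0, 0.202, 0.211 and 0 FPKM in MG53-TG. The second start was lower in each MG53-TG sample than in each WT sample. Its share was 23.0 ± 11.7% in WT and 3.11 ± 3.62% in MG53-TG, which passed no threshold after adjustment (limma adjusted p = 0.208). Rxrb was divided between starts at 34031812 and 34032196, which held 49.8 ± 5.79% and 47.0 ± 5.83% in WT and 55.2 ± 5.87% and 41.7 ± 6.13% in MG53-TG.

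Ppargc1a had a single start in all 8 samples, with its first base at 51553922 on the minus strand. The RefSeq start of this gene lies 13803 bases upstream, at 51567725, and no start event was listed there. The sole start of Ppargc1b was joined in MG53-TG replicate 1 by an unannotated one at 0.957 FPKM. In Rxrb, an exon at 34036861 to 34036964 also occurred without its first 12 bases, and the longer form made up 7.84%, 19.0%, 16.8% and 15.6% in WT and 38.7%, 21.3%, 5.98% and 25.3% in MG53-TG (two-sided exact permutation p = 0.314, unadjusted). In Ppargc1a, an exon at 51490017 to 51490121 also occurred 31 bases shorter, and the longer form made up 25.5 ± 11.9% in WT and 12.7 ± 14.9% in MG53-TG (two-sided exact permutation p = 0.257, unadjusted). Both overlapped between the groups and were looked at after their values had been seen.

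**Figure D4:**
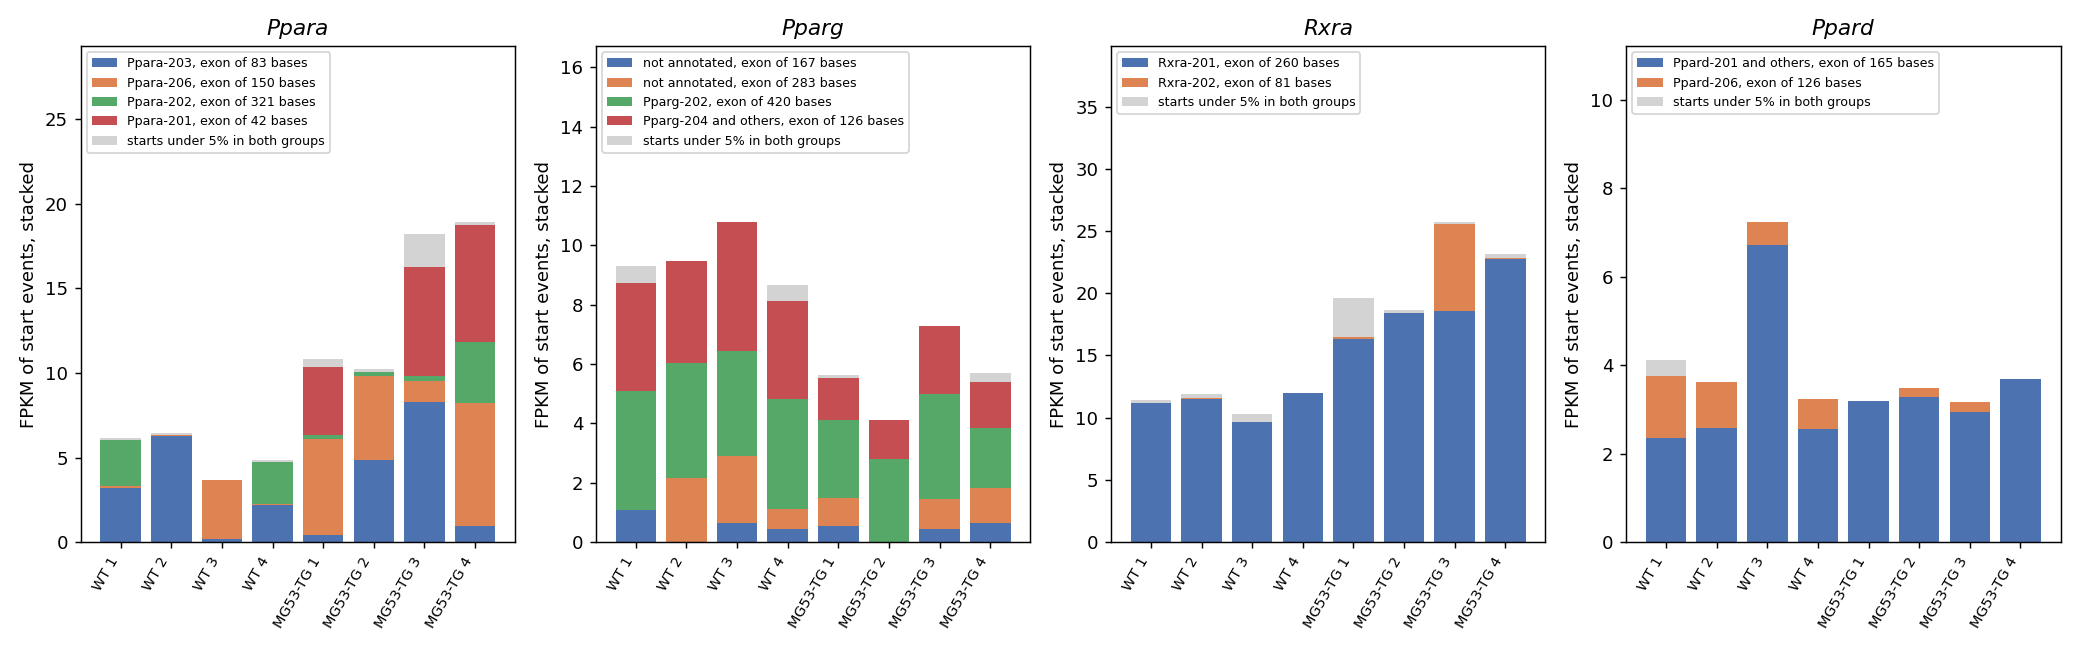
FPKM of start events stacked in each sample for Ppara, Pparg, Rxra and Ppard; colours are first exons named by their annotated transcript and length in bases, and grey sums the starts with under 5% in both groups. The Ppara-201 part is seen in MG53-TG replicates 1, 3 and 4 alone, and Ppard-206 is larger in the WT bars.

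Most tested genes of those through which PPARα is known to act were higher in MG53-TG. Of 28 listed PPARα targets, 24 could be tested, and Pdk4 and Cd36 passed the filter through MG53-TG alone. Of the other 22, 21 were higher in MG53-TG, none was lower and 1 passed no threshold, beside 15.8% higher and 29.0% lower among all genes. The median log2 fold change of these 22 was 1.16, beside -0.16 for all genes. Median-of-ratios scaling gave the same counts, beside 20.6% higher and 20.6% lower among all genes. With quantile normalization 1 of the 22 was lower. Among the largest rises were those of Fabp1, the liver-type fatty acid binding protein, which had 238, 273, 301 and 213 FPKM in WT and 5904, 5286, 6099 and 5967 FPKM in MG53-TG, and of Creb3l3, a transcription factor of lipid metabolism (1.95 and 44.4 FPKM on average, log2 fold change 3.92, limma adjusted p = 5.16e-06).

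The list was written from general knowledge of PPARα with earlier results of these data known, so it is no independent evidence of a direction. Fabp1 and others of these genes are also abundant in absorptive enterocytes. In the same samples, 10 of 10 enterocyte markers were higher in MG53-TG, beside 15.8% of all genes, and their summed level was 741 to 852 FPKM in WT and 6269 to 6992 FPKM in MG53-TG. Of 6 stem cell markers, 5 were lower, beside 29.0% of all genes, with sums of 375 to 542 FPKM in WT and 37.9 to 202 FPKM in MG53-TG, and of 5 proliferation genes 4 were lower, beside the same 29.0%, with sums of 383 to 419 and 115 to 298 FPKM. The sums of stem cell markers were 190 and 202 FPKM in MG53-TG replicates 1 and 2 and 55.2 and 37.9 FPKM in replicates 3 and 4, which had the highest Rxra and the lowest Rxrb. The part of these markers in the values of the receptors, partners and targets was not tested, and in whole organoids a change in the cells of a type and a change in RNA per cell cannot be told apart.

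Other marker lists bounded what the organoids held. All 5 Paneth cell markers with a value were lower in MG53-TG (1222 to 1637 FPKM in WT and 262 to 459 in MG53-TG, summed). Of the tested goblet markers, 3 of 5 were lower (337 to 372 and 114 to 307 FPKM). Of the tested enteroendocrine markers, 3 of 5 were higher (214 to 236 and 340 to 487 FPKM). Among all genes 29.0% were lower and 15.8% higher. The goblet sum was mostly Tff3, at means of 316 and 170 FPKM. Of the goblet markers tested without a call, Zg16 had the higher mean in MG53-TG (9.18 and 33.7 FPKM). Clca1, with no entry in MG53-TG replicate 2, had the lower mean there (1.49 and 0.842 FPKM). Tuft, muscle, mesenchyme and immune sums were at or below 9.24 FPKM in every sample, with Ckm and Des the only muscle markers with an entry, at group means of at most 0.302 FPKM. Of the mesenchyme markers, Col1a1, Col1a2, Col3a1 and Dcn were at 0 in WT and Pdgfra had no entry. Col1a2 and Col3a1 had no entry in MG53-TG replicate 1 and means of 1.24 and 1.26 FPKM over the other 3 MG53-TG samples, through which alone they passed the filter on low values, so no call is read from them. Of the immune markers, Cd68 was lower and Cd3e, Lyz2 and Ptprc were near 0. The fat cell markers Adipoq and Plin1 were below 0.5 FPKM in every sample and Lep had no entry, whereas Cidec, a lipid droplet protein, rose.

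Of 11 genes that PPARγ is known to drive in fat cells, 6 could be tested, and Adipoq, Lpl, Plin1 and Slc2a4 were under the filter. Aqp7 and Cd36 passed that filter through MG53-TG alone and Cidea through WT alone, so their calls are no support for a direction. Of the other 3, 1 was higher (Cidec) and 1 lower (Fabp4), too few to set against the 15.8% higher and 29.0% lower of all genes. Cidec was at 4.19 FPKM on average in WT and 13.4 FPKM in MG53-TG (log2 fold change 1.48, limma adjusted p = 6.04e-05) and Aqp7, a glycerol channel, at 0.108 and 2.31 FPKM (log2 fold change 1.53, limma adjusted p = 0.00122). Cd36, a fatty acid translocase, had no entry in MG53-TG replicate 1 and was fitted on the other 7 samples, with 0.510, 0.154, 0.195 and 0 FPKM in WT and 0.709, 6.002 and 6.12 FPKM in MG53-TG replicates 2 to 4 (log2 fold change 1.87, limma adjusted p = 0.0198), a call that was lost with the absent entry set to 0 and without WT replicate 4 or MG53-TG replicate 3 or 4. Cidea, a lipid droplet protein, was at 1.65 and 0.269 FPKM (log2 fold change -1.08, limma adjusted p = 0.000449).

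Proteins that carry or release fatty acids as ligands were divided, with 3 of 8 higher and 3 lower, beside 15.8% and 29.0% of all genes, and a median log2 fold change of 0.33. Besides Fabp1, Fabp2, the intestinal fatty acid binding protein, rose from 78.5 to 899 FPKM (log2 fold change 3.42, limma adjusted p = 3.39e-05), and Lipe, hormone-sensitive lipase, from 2.47 to 5.61 FPKM (log2 fold change 0.87, limma adjusted p = 0.021), the latter call being lost without WT replicate 2 or 4 or MG53-TG replicate 4. Fabp5, which is known to bring ligands to PPARδ, fell from 51.5 to 8.53 FPKM (log2 fold change -2.50, limma adjusted p = 4.65e-05). Fabp4, the fat cell fatty acid binding protein and PPARγ target, fell from 7.13 to 1.3 FPKM (log2 fold change -1.83, limma adjusted p = 0.000466), with no entry in MG53-TG replicate 1, which was left out of its fit. Pnpla2, adipose triglyceride lipase, was at 16.2 and 12.7 FPKM (log2 fold change -0.33, limma adjusted p = 0.0375), and its call was lost under both other scalings and in 7 of 8 fits without 1 sample.

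The receptors that share RXR with the PPARs were mostly higher. Of 9 tested, 6 were higher and none lower, beside 15.8% and 29.0% of all genes, with a median log2 fold change of 0.82. These counts held under median-of-ratios scaling, beside 20.6% higher and 20.6% lower of all genes, and under quantile scaling. Nr1i3, the constitutive androstane receptor of drug metabolism, rose most: it had 2.70, 3.68, 3.92 and 1.72 FPKM in WT and 40.4, 40.4, 80.1 and 95.4 FPKM in MG53-TG (log2 fold change 3.96, limma adjusted p = 5.67e-05). Nr1h4, the bile acid receptor FXR, rose from 7.41 to 28.8 FPKM (log2 fold change 1.79, limma adjusted p = 0.000134). Nr1h2, the oxysterol receptor LXRβ, was at 3.84 and 10.8 FPKM (log2 fold change 1.18, limma adjusted p = 0.0279), a call lost without WT replicate 1 or 2 or without MG53-TG replicate 3 or 4. Rxrg, the remaining RXR, had no entry.

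No tested coactivator or corepressor passed the threshold in the upward direction. Of 13 coactivators tested, 4 were lower and none higher, with a median log2 fold change of -0.35. The share lower was near the 29.0% of all genes, while 15.8% of all genes were higher. Smarcd3, a chromatin remodelling subunit in the list, was under the filter, at 0.0526 FPKM in WT and 0.691 FPKM over the 2 MG53-TG samples with an entry, and with no filter 1 coactivator was higher. The 4 lower coactivators included Lpin1, a phosphatidate phosphatase that also assists PGC-1 and PPARα (7.28 and 2.42 FPKM, log2 fold change -1.32, limma adjusted p = 0.00175). Also among them were Carm1, an arginine methyltransferase (15.6 and 8.16 FPKM, -0.89, limma adjusted p = 0.00466, but -0.03 with limma adjusted p = 0.924 from end events alone), and Pprc1, the remaining PGC-1 family member (10.99 and 5.47 FPKM, -1.05, limma adjusted p = 0.0413). The Pprc1 values in MG53-TG replicates 1 to 4 were 7.33, 9.36, 2.60 and 2.57 FPKM, and its call was lost without any 1 WT sample or without MG53-TG replicate 3 or 4, and also with no filter, with median-of-ratios scaling and with end events alone.

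Of 10 corepressors, 3 were lower and none higher, beside 29.0% of all genes lower. They included Tbl1xr1 and Tbl1x, subunits of the NCoR complex, which were 0.607 and 0.727 of their WT means (log2 fold change -0.61 and -0.45). Ncor1 (47.9 and 39.2 FPKM, limma adjusted p = 0.302) and Nrip1, a corepressor of PPAR and oestrogen receptors (7.81 and 5.89 FPKM, limma adjusted p = 0.315), passed no threshold.

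Among factors that PGC-1 acts with and genes of mitochondrial transcription, 5 of 11 were lower and none higher, beside 29.0% and 15.8% of all genes, with a median log2 fold change of -0.30. Esrrg, an oestrogen-related receptor, fell from 4.23 to 0.745 FPKM (log2 fold change -1.60, limma adjusted p = 0.00121), with no entry in MG53-TG replicate 4, which was left out of its fit. Yy1, a transcription factor that recruits PGC-1α, was 0.547 of its WT mean (log2 fold change -0.83) and Gabpb1, a subunit of the nuclear respiratory factor GABP, 0.575 (-0.68). Hnf4a, the nuclear receptor of enterocyte and hepatocyte genes, fell from 148 to 109 FPKM (log2 fold change -0.44, limma adjusted p = 0.00276).

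Esrra, the oestrogen-related receptor most tied to PGC-1α, had 34.7, 46.2, 44.3 and 30.3 FPKM in WT and 29.1, 67.0, 77.1 and 81.7 FPKM in MG53-TG, so that MG53-TG replicate 1 was lowest of all and the other 3 highest (log2 fold change 0.62, limma adjusted p = 0.148). Regulators of PGC-1 had 2 of 12 lower and none higher, beside 29.0% and 15.8% of all genes, with a median log2 fold change of -0.19, close to that of all genes. Creb1, a transcription factor that activates Ppargc1a, fell from 11.5 to 5.61 FPKM (log2 fold change -0.92, limma adjusted p = 0.00606) and Atf2, another such factor, from 10.9 to 7.60 FPKM (-0.47, limma adjusted p = 0.00847).

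**Figure D5:**
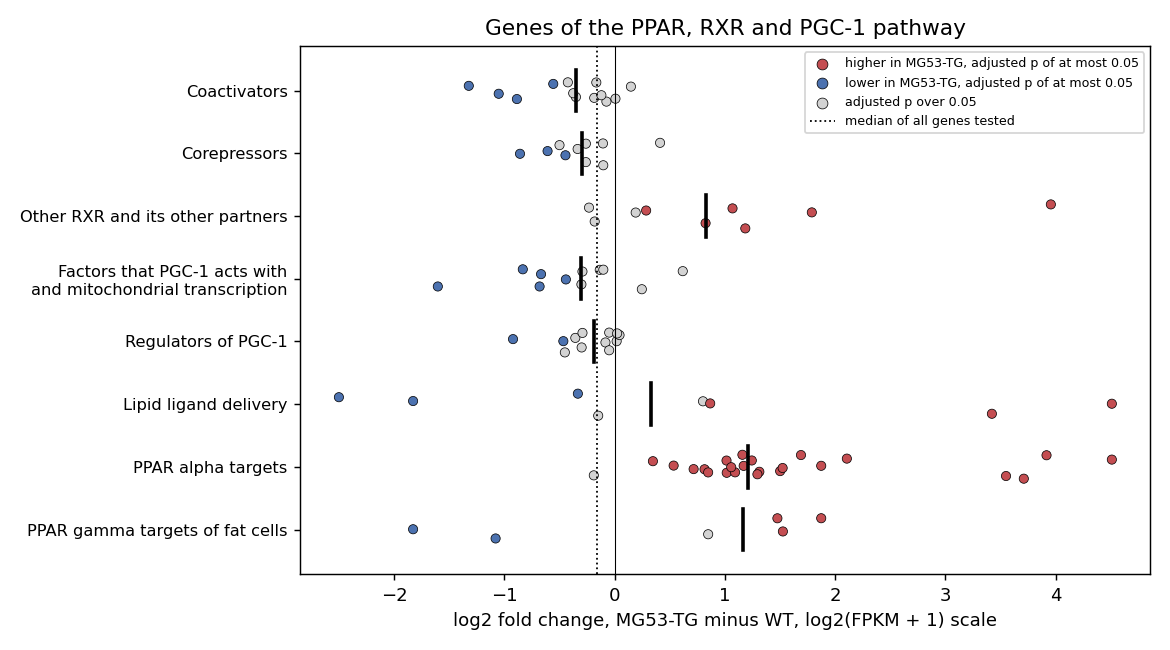
Log2 fold change, MG53-TG minus WT, of each tested gene in 8 lists (points, jittered vertically), coloured by the call at an adjusted p of at most 0.05; thick bars mark list medians and the dotted line the median of all genes. PPARα targets (median 1.21 with Pdk4 and Cd36 included) and other RXR partners (0.82) lie to the right, and coactivators (-0.35) and PGC-1 partner factors (-0.30) to the left.

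The genes whose pattern was most like that of each member were listed by Pearson correlation of log2(FPKM + 1) over the 8 samples, among 8666 protein-coding genes that averaged 2 FPKM or more. They share libraries and the difference between the groups, so the values are a description. Ppara was followed most closely by Gda (r = 0.993) and Lrrc39 (0.992), Rxra by Peli1 (0.998) and Hint2 (0.993), and Rxrb by Mcm2 (0.998) and Tuba1a (0.997). Pparg was followed by Rps27 (0.962) and 2610528A11Rik (0.960), and Ppard by Clpx (0.955) and Gm49395 (0.951). Ppargc1a was followed by Micu2 (0.967) and Slc44a3 (0.944), and Ppargc1b by Fgfrl1 (0.955).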

How the data were processed

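RNA from 8 samples of intestinal crypt organoids (4 WT, 4 MG53-TG) was sequenced by the authors. Reads were trimmed with Cutadapt 1.9.1 and mapped with HISAT2 2.0.1, and the submitters' processing notes also name HTSeq 0.6.1, DESeq2 and the build mm10. The authors deposited FPKM values per transcript event, such as a start or an end, and the tool that made these events is not given in the sources used here. The smallest value was 1e-06, so the values are estimates that cannot be turned back into reads, depth is unknown, and no interval based on depth is given.

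The value of a gene was its summed start events, or its summed end events where these averaged higher, which was the case for Pparg among the 7 members. A gene absent from a sample counted as missing if the median of the rest of that group reached 0.5 FPKM, or else as 0. In GENCODE's GRCm38 annotation 13732 of 13739 identifiers were found, and 185 of the 212 start and end entries of members lay on an annotated exon boundary of theirs and 0 belonged to another gene. Summed start FPKM was 269837 to 273797 in WT and 269094 to 284330 in MG53-TG.

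Values were compared as log2(FPKM + 1), which understates changes of low genes, with limma 3.58.1 (trend, no covariate) in R 4.3.3 and Benjamini-Hochberg adjustment, at a threshold of 0.05. Start and end shares were compared on the arcsine of their square root, for genes with a sum of at least 1 FPKM in every sample and shares of 5% to 95%. Two-sided exact permutation tests used 70 relabellings. Python 3.11.15, numpy 2.4.6 and pandas 2.3.3 served for the rest. In simulated data with independent normal noise, 200 of 10286 genes were changed by 1 on the log2 scale. Of these, 75.5% were recovered, with 7 false calls. Among 7348 start shares, 200 were changed by 0.5 on the arcsine scale, and 34% were recovered with 11 false calls. Far fewer genes were changed there than the 4833 called in the data, so these rates need not hold for this comparison.

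Alternatives were a pseudocount of 0.1, no filter, a filter at 2 FPKM, median-of-ratios scaling, quantile normalization, sample weights, a replicate block, start or end events alone, absent entries as 0, genes matched by exon coordinates, and each sample left out. The members, gene lists and marker lists were chosen with earlier results of these data known. Genes named were the members, Trim72, from each list the 3 largest rises and falls past the threshold, fixed genes (among them Rxrg, Pprc1, Ncor1, Nrip1, Hnf4a and Esrra), the 2 genes most like each member and member starts with a mean share of at least 5%. Other starts, alternative exons and marker genes were named after their values were seen. Some genes that this rule names are not reported here.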

Additional observations from a re-analysis of the deposited data

Results flagged for a closer look

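In 41 groups of 4 samples searched, those of the members and of their starts with a mean share of at least 5%, 4 held a sample set apart from the other 3 by Dixon's criterion. Chance gives about 1 in 20 groups, or 2.05 of 41. Ppargc1b was at 4.00 FPKM in MG53-TG replicate 2, above the others of its group. The Ppara-206 start at 85735564 was at 3.51 FPKM in WT replicate 3, where it held nearly all of the Ppara starts. The Ppara-202 start at 85735776 was at 3.58 FPKM in MG53-TG replicate 4. The Ppard start at 28232700 was at 6.71 FPKM in WT replicate 3. No cause was tested.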

How the results depend on the processing

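Ppara and Rxra were called higher in every alternative and every fit without 1 sample. Pparg was weaker than the threshold with median-of-ratios scaling (-0.50) and quantile normalization (-0.52). Rxrb lost its call with no filter (-0.45), median-of-ratios scaling (-0.27), quantile normalization (-0.28), end events alone (-0.42) and matching by exon coordinates (-0.42), and without single samples its log2 fold change ran from -0.55 to -0.33. Ppargc1a ran from -0.0153 to 0.27 without single samples, and Ppargc1b from -0.0648 (without MG53-TG replicate 2) to 0.10, with -0.0208 without WT replicate 4, and was -0.0659 when matched by exon coordinates. Ncor1 turned to 0.17 with end events alone, and Esrra was called without MG53-TG replicate 1 (0.95). With end events alone Carm1 came to -0.03 and Creb1 lost its call (-0.998), as did Atf2 with start events alone (-0.71). Causes were not tested.

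Genes called numbered 4833, and 3863 to 5102 without single samples. Start events called fell from 87 to 54 without the transformation. End events called were 3, and 1 at 2 FPKM, with 3 to 10 without single samples. End events alone left 1 lower coactivator, 3 lower PGC-1 partner factors and 1 lower PGC-1 regulator, and start events alone 1 lower PGC-1 regulator, where not every listed gene has such events. With a mean of at least 2 FPKM, 1 PPARγ target of fat cells was higher and 1 lower, among fewer genes tested. Ppard and Ppargc1b had no end event listed, and that of Ppargc1a was listed in MG53-TG replicate 4 alone, at 0.562 FPKM. None of them was tested from end events alone.

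With a replicate block, Rxrb was -0.45 (limma adjusted p = 0.0511), and limma called 0 start and 0 end events, with 782 and 140 at an unadjusted limma p under 0.05 (864 start events without the block). In deviations from group means, same-numbered samples correlated at -0.04 to 0.10 in 4 pairs, 1 of them over 0.1. Differently numbered samples correlated at -0.12 to 0.10. So few pairs cannot show whether same-numbered samples belong together, so a pairing was not settled here. Unknown depth limits what can be said of values near 0.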
